A study of Mus musculus with 6 samples.

Results

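The comparison described here is between the paraventricular nucleus of the hypothalamus (PVN) 2 h after an electroconvulsive seizure (ECS) and the same nucleus 2 h after sham handling in C57Bl/6 mice. Its members are 4 of the 6 arrays of the study, chosen by their labels: ECS at 2 h, replicates 1 and 2, and sham at 2 h, replicates 1 and 2. Mice of the ECS group received 1 shock through ear clip electrodes under isoflurane, and sham mice were handled alike but got no current. The other 2 arrays are from ECS mice at 6 h, a time for which the study has no sham group. Each array holds pooled RNA of 2 to 3 animals, cut from frozen sections by laser microdissection and amplified as a whole before labelling. The labels state neither age nor sex. The design text says that the experiment was run 2 times on different animals, and replicates 1 and 2 were taken to be these runs, which the labels do not state. P-values measure the spread between 2 pools per group.

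The PVN is the control centre of the neuroendocrine stress and thyroid axes: its large neurons send oxytocin and vasopressin to the posterior pituitary, and its small neurons release corticotropin-releasing hormone and thyrotropin-releasing hormone to the anterior lobe. A generalized seizure drives calcium and cyclic AMP signals in neurons, which switch on immediate early genes through factors already present, among them CREB and SRF. The products of many early genes are themselves transcription factors, such as the Fos and Jun proteins that pair to form AP-1, and others act on synapses, channels and the cell's defence against oxidants.

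Values are log2 signals, that is log2 of the quantile-normalised array signal plus 16, with a floor of 4, so that fold differences of dim probe sets are understated. The labelled tissue carried its markers: Oxt, Avp, Trh and the PVN transcription factor Sim1 were detected on all arrays, whereas the PVN factor Otp lay below the array median on all of them. Crh and Npas4 have no named probe set in the array annotation used, and Arc, Junb, Nr4a1 and Fosl2 did not pass the filter on low values. The median signal of the arrays as deposited ran from 25.2 to 40.8. The 2 sham arrays had a rank correlation of 0.878 with each other and the 2 arrays at 2 h one of 0.882, against 0.876 and 0.902 for sham and ECS of the same replicate number. Pools of one group were therefore no more alike than pools of one replicate number.

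The start regions of 4 genes are shown first. They belong to Fos, Fosb and Maff, 3 genes of the AP-1 and Maf family, and to Srxn1, the gene of sulfiredoxin, which restores over-oxidised peroxiredoxins. All 4 genes were among the highest at 2 h against sham, and their start regions hold letters that CREB or AP-1 are known to bind. Sequences are from RefSeq (GRCm38.p6), 250 bases before to 50 bases after the start, on the gene's strand. Capitals mark matches on either strand to the cyclic AMP response element TGACGTCA, its short form TGACG, which the full element contains, the AP-1 element TGANTCA and the core TGACNNNGC of the antioxidant response element. Fos lies at chr12:85473640-85473939 (plus strand), Fosb at chr7:19309996-19310295 (minus strand), Maff at chr15:79347270-79347569 (plus strand) and Srxn1 at chr2:152105274-152105573 (plus strand). For Maff the table holds 3 start regions, and the one shown was chosen because it holds the full element.
Fos: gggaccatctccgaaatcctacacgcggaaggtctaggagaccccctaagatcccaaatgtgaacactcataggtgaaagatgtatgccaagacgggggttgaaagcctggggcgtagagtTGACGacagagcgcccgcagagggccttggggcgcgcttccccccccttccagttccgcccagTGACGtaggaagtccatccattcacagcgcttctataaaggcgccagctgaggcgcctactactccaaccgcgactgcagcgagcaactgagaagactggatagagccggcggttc
Fosb: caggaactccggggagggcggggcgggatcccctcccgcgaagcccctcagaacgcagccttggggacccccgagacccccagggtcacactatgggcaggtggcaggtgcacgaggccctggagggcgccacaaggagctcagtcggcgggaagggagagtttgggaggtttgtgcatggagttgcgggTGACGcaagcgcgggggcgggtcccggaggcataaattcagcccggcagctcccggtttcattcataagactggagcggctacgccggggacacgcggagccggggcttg
Maff: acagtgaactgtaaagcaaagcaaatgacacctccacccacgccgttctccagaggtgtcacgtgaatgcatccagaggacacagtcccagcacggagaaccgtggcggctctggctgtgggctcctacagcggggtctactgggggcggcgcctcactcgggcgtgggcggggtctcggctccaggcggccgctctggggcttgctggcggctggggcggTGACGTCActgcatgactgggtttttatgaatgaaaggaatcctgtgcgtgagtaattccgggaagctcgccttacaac
Srxn1: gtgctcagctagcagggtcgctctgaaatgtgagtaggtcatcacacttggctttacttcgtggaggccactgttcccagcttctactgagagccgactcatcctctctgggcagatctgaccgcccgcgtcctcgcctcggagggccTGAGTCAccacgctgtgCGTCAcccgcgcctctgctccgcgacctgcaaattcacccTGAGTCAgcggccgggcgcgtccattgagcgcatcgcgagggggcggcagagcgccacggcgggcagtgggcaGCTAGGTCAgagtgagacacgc

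Counting the first base of the gene as 1, with the base before it as -1, the Fos region has the short form at -129 and -66, and the Fosb region has it at -60. The Maff region holds the full palindrome at -29. In the Srxn1 region the AP-1 letters TGAGTCA stand at -102 and again at -45, with the short form on the other strand at -85 and an antioxidant core on the other strand at 29. Of all 32851 start regions in the table, 1.79% held the full element, 20.8% the short form, 7.81% the AP-1 letters and 12.4% the antioxidant core. For genes, 1 match in any of a gene's start regions was counted, so shares of genes cannot be set against those of single regions. Among the 6010 tested genes with a start region the shares were 3.78%, 38.4%, 5.94% and 16.8%. Among the 140 genes at least 2-fold higher at 2 h without overlap, the short form stood in 41.4%, the AP-1 letters in 5.71%, the antioxidant core in 21.4% and the full element in 1.43%. Among the 159 genes lower by as much, the shares were 32.7%, 4.40%, 15.1% and 4.40%. These are counts of letters, given as a description, and no test was made on them.

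Over all 12662 tested probe sets, limma called 0 (0%) at an adjusted p under 0.05, with a lowest adjusted p of 0.0525, and 507 (4%) had an unadjusted p under 0.05, of which 218 (1.72%) were higher and 289 (2.28%) lower. A limma fit blocked on replicate number called 4 probe sets (0.0316%), and one on the 4 arrays alone called 12 (0.0948%). All of these calls were of lower values at 2 h. Leaving out 6 h replicate 1 or 6 h replicate 2 gave 10 calls each, the same 10, all among the 12. No overlap between the 2 ECS and the 2 sham arrays was found for 2058 probe sets higher (16.3%) and 2071 lower (16.4%) at 2 h, 32.6% together. Of these, 200 (1.58%) were at least 2-fold higher and 241 (1.9%) at least 2-fold lower, 3.48% together, and 5 (0.0395%) and 19 (0.15%) differed at least 4-fold. On the values as deposited, without scaling, the 2-fold counts were 103 higher and 311 lower. Without 1 of the 4 arrays, where 3 arrays overlap less often by construction, the higher count lay at 347 (without sham replicate 1), 493 (without sham replicate 2), 370 (without ECS replicate 1) and 412 (without ECS replicate 2), and the lower count at 432, 440, 356 and 536. None of the genes described below passed the main limma test, and their differences are given as measured.

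Fos, the founding AP-1 subunit, read 5.04 and 5.02 in the sham arrays and 7.25 and 6.81 at 2 h. Both ECS arrays lay far above both sham arrays, which were close to each other. The log2 difference was 2.00 ± 0.42 (limma standard error), 3.99-fold, with an adjusted p of 0.58. More RNA per cell and more cells that hold the RNA cannot be told apart in bulk tissue, here or for any gene below. Fosb, a second Fos-family subunit whose products are known to last longer, read 4.42 and 4.46 in sham, near the floor, and 6.58 and 6.32 at 2 h. Again the groups stood well apart. Its difference was 2.02 ± 0.51 (4.04-fold, limma adjusted p = 0.692).

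Maff, a small Maf protein that binds DNA with Fos-type or NRF2-type partners, read 5.04 and 5.57 in sham and 7.25 and 7.27 at 2 h. The ECS arrays were level and lay above both shams. The difference was 1.96 ± 0.43 (3.88-fold, limma adjusted p = 0.656). Jun, the main partner of Fos, was measured by 2 tested probe sets, and on the brighter one the sham arrays read 8.53 and 7.61 and the ECS arrays 9.08 and 9.38. The ECS arrays were higher, but the sham arrays differed from each other by nearly as much as the groups did. The difference was 1.16 ± 0.36, and 0.87 on the other probe set. It came to 0.71 without sham replicate 2.

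Of the 16 AP-1 and Maf genes on the array, 6 were higher without overlap and 0 lower, with a median log2 difference of 0.17 over all 16. Over all 12393 genes on the array, 16.7% were higher and 16.2% lower without overlap, and the median was 0.01. Besides Fos, Fosb, Maff and Jun, the 6 comprised Junb (0.39) and Fosl2 (0.15), which did not pass the filter. For both Junb and Fosl2, the lower ECS array was nearly level with the higher sham array. Their place among the 6 therefore rests on a very small gap, and the count does not show a shift of the whole family. Jund, an AP-1 subunit known for steady expression, read from 9.71 to 10.61 over the 4 arrays, with overlap of the groups. Of the 16, 9 passed the filter on low values.

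Among 20 further early-response genes, 5 were higher without overlap and 0 lower, against 16.7% and 16.2% of all genes. Their median was 0.30, and 11 passed the filter. Egr1, a zinc-finger factor switched on by synaptic activity, read 8.31 and 8.15 in sham and 9.45 and 8.90 at 2 h. Both ECS arrays were above both shams. The difference was 0.95 ± 0.32, or 1.93-fold. Ier3, a short-lived stress-induced protein, was 1.80-fold higher, Srf, the serum response factor that drives many early genes, 1.65-fold, and Klf2, a Krüppel-like factor, 1.57-fold, each without overlap. The activity-regulated Arc, which ties neuronal firing to synaptic receptor turnover, read 5.51 and 5.44 in sham and 5.54 and 4.52 at 2 h, with overlap. Nr4a1, an orphan receptor of the early response, read 4.77 and 4.86 in sham and 5.53 and 4.75 at 2 h, also with overlap.

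**Figure D1:**
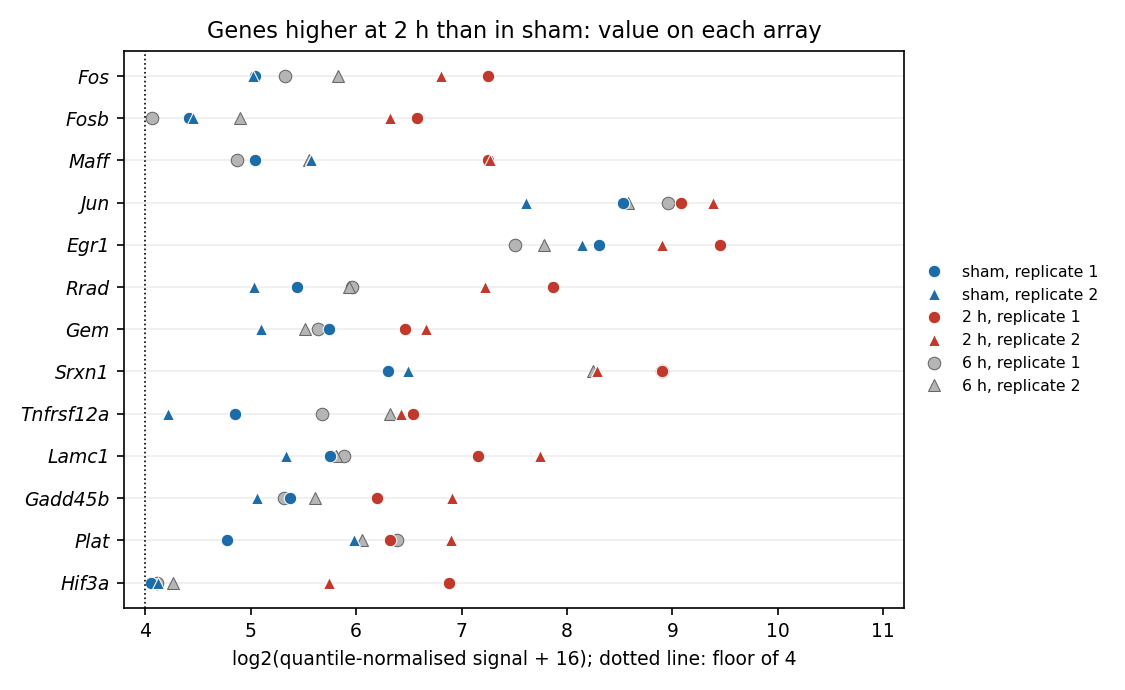
Log2 signal of 13 genes that were higher at 2 h than in sham, on each of the 6 arrays (x axis, log2 of the quantile-normalised signal plus 16; dotted line, the floor of 4); blue, sham; red, 2 h; grey, 6 h; circles, replicate 1; triangles, replicate 2. The red points lie to the right of the blue ones in every row, by 2.00 for Fos and 0.95 for Egr1 in the mean.

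The effector genes of neuronal activity, a list that also holds the transcription factors Egr3 and Crem, did not move as 1 block. Of 23 on the array, 8 were higher and 4 lower without overlap, against 16.7% and 16.2% of all genes. The median was 0.40, and 17 passed the filter. With a filter at the 75th percentile, which left 3 members higher and 4 lower, the median was -0.48. Gadd45b, a stress and activity gene linked to DNA demethylation, read 5.38 and 5.06 in sham and 6.20 and 6.91 at 2 h. The ECS arrays lay above the shams. It was 2.53-fold higher (1.34 ± 0.44). Plat, the tissue plasminogen activator that neurons release at synapses, was 2.35-fold higher (1.23 ± 0.48), but sham replicate 2 at 5.98 lay close to ECS replicate 1 at 6.33, and without sham replicate 1 the difference was 0.64. Pcsk1, the prohormone convertase that cuts peptide precursors, was 1.57-fold higher and Bdnf, the neurotrophin, 1.33-fold, both without overlap. In the opposite direction, Nptx1, a pentraxin that gathers glutamate receptors, was 1.74-fold lower and Homer1, a scaffold of the postsynaptic density, 1.59-fold lower, the latter on 1 of 2 tested probe sets and by a log2 difference of only -0.20 without ECS replicate 1.

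Rrad and Gem are small GTPases of the RGK family, which bind the beta subunits of voltage-gated calcium channels and are known to restrain calcium entry. Rrad read 5.44 and 5.04 in sham and 7.86 and 7.22 at 2 h. The groups were wide apart, with ECS higher in both replicates. The difference of 2.30 ± 0.40 (4.93-fold) was the largest of the single-symbol probe sets higher without overlap, with a limma adjusted p of 0.284. Gem read 5.74 and 5.10 in sham and 6.46 and 6.66 at 2 h, higher in both ECS arrays. It was 2.21-fold higher (1.14 ± 0.42).

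Srxn1 was read by 4 tested probe sets. On the one with the smallest p, sham read 6.30 and 6.50 and ECS 8.90 and 8.28. Both ECS arrays were above both shams by more than 2-fold. The difference was 2.20 ± 0.37 (4.58-fold, limma adjusted p = 0.254), and 1.76, 0.90 and 0.27 on the other 3 probe sets, the last with overlap. Of the 20 other NRF2-type antioxidant genes, 4 were higher and 3 lower without overlap (median 0.13), near the shares of all genes. Of 13 peroxiredoxin and thioredoxin genes, 2 were higher and 1 lower, with a median of 0.02 that was -0.07 on the values as deposited. The metallothioneins Mt1 and Mt2, which bind metals and scavenge oxidants, were 1.39-fold and 1.34-fold higher without overlap, but the log2 differences of 0.48 and 0.42 came to 0.12 and 0.11 without sham replicate 2. Txnrd1, thioredoxin reductase, overlapped, with a log2 difference of 0.60 that was 0.13 without sham replicate 1. Hmox1, haem oxygenase, and Nqo1, a quinone reductase, both classic NRF2 targets, did not pass the filter and had log2 differences of -0.53 and -0.26. Sesn2, a sestrin, was 2.54-fold higher on 1 of 2 tested probe sets.

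Tnfrsf12a, the receptor of the cytokine TWEAK, read 4.85 and 4.21 in sham and 6.54 and 6.43 at 2 h. Its sham values were near the floor and its ECS values close to each other. The difference was 1.95 ± 0.46 (3.87-fold, limma adjusted p = 0.692), and its other probe set gave 1.52. Lamc1, the laminin gamma 1 chain of basement membranes, read 5.75 and 5.34 in sham and 7.16 and 7.74 at 2 h, clear of each other. It was 3.75-fold higher on that probe set (1.91 ± 0.40, limma adjusted p = 0.58), and its other probe set, with a difference of 0.35, overlapped. Of the 26 other laminin and matrix genes, 7 were higher and 5 lower without overlap, with a median of 0.04, against 16.7% higher and 16.2% lower over all genes. With Lamc1 the median was 0.06, and -0.03 on the values as deposited. Hspg2, the perlecan of basement membranes, read 4.90 and 4.81 in sham but 8.59 in ECS replicate 1 and 4.88 in ECS replicate 2, so that its mean difference of 1.88 rested on 1 array.

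Of 22 genes that glucocorticoids, the hormones at the end of the PVN's stress axis, are known to induce, 10 were higher and 4 lower without overlap. The shares of all genes were 16.7% and 16.2%. The list's median was 0.23, and 19 members passed the filter. Hif3a, a hypoxia-inducible factor subunit that glucocorticoids induce in brain, read 4.06 and 4.13 in sham, at the floor, and 6.88 and 5.75 at 2 h. It was lifted off the floor in both ECS arrays, less so in replicate 2. The difference was 2.22 ± 0.56 (4.67-fold, limma adjusted p = 0.692). Cdkn1a, the cell-cycle inhibitor p21, was 2.06-fold higher without overlap, but by 0.48 (log2) without sham replicate 2. Nfkbia, the inhibitor of NF-kappa B, was 1.59-fold higher (0.67, and 0.34 without sham replicate 2), Errfi1, a brake on EGF receptors, 1.57-fold, and Fkbp5, the co-chaperone of the glucocorticoid receptor, 0.68 on the log2 scale, each without overlap. Against the list's direction, Txnip, which binds thioredoxin, and Pdk4, which shuts down pyruvate oxidation, had log2 differences of -0.78 and -0.98. The receptor gene itself, Nr3c1, read 8.16 and 9.48 in sham and 7.96 and 8.72 at 2 h, with overlap.

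Chaperone, polyamine and ribosome genes showed small differences. Their counts stand beside 16.7% higher and 16.2% lower without overlap over all genes on the array. Of 20 heat shock genes, 4 were higher and 1 lower without overlap (median 0.14), led by the inducible chaperone Hspa1a, which was 2.29-fold higher, though by 0.64 (log2) without sham replicate 1. Of 22 endoplasmic reticulum folding genes, 7 were higher and 0 lower (median 0.06), among them Manf, a secreted factor of endoplasmic reticulum stress, at 1.83-fold, and the disulphide isomerase Pdia6 at 1.63-fold. That median was -0.02 on the values as deposited. All 7 polyamine genes passed the filter, 4 were higher without overlap and 0 lower, and Sat1, the enzyme that acetylates polyamines for breakdown, was 1.84-fold higher. Of 18 cytosolic ribosomal protein genes, 6 were higher and 1 lower without overlap, with differences of 0.15 (Rps3) to 0.31 (Rpl41) for the 4 named by the rule and a median of 0.16.

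Other signalling and metabolic lists held members in both directions, as did all genes on the array (16.7% higher and 16.2% lower without overlap). Of 14 phosphatases and other brakes of MAP kinase signalling, 3 were higher and 2 lower without overlap (median 0.20). Of 26 inflammatory genes only 7 passed the filter, 5 were higher and 3 lower, and the median was 0.03. Of 19 genes of p53 and growth arrest, 6 were higher and 3 lower, with a median of 0.02 that was -0.02 on the values as deposited. Among 11 genes of insulin-like growth factor binding, 3 were higher and 4 lower (median 0.13, and -0.07 without sham replicate 2). Besides Igfbp4, described below, Igfbp2, another binding protein of these factors, was 1.87-fold lower, and the clearance receptor Igf2r was 2.06-fold higher on 1 of 2 tested probe sets. Of 22 growth factor genes, 2 were higher and 4 lower (median -0.13, and 0.06 without sham replicate 2 or ECS replicate 1), with Fgf12, an intracellular partner of sodium channels, 1.95-fold lower. Of 14 cholesterol synthesis genes, 5 were higher and 1 lower (median 0.14), and of 26 genes of oxidative phosphorylation, 2 were higher and 5 lower, with a median of -0.05 that was 0.07 with array medians subtracted and 0.04 without ECS replicate 2.

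**Figure D2:**
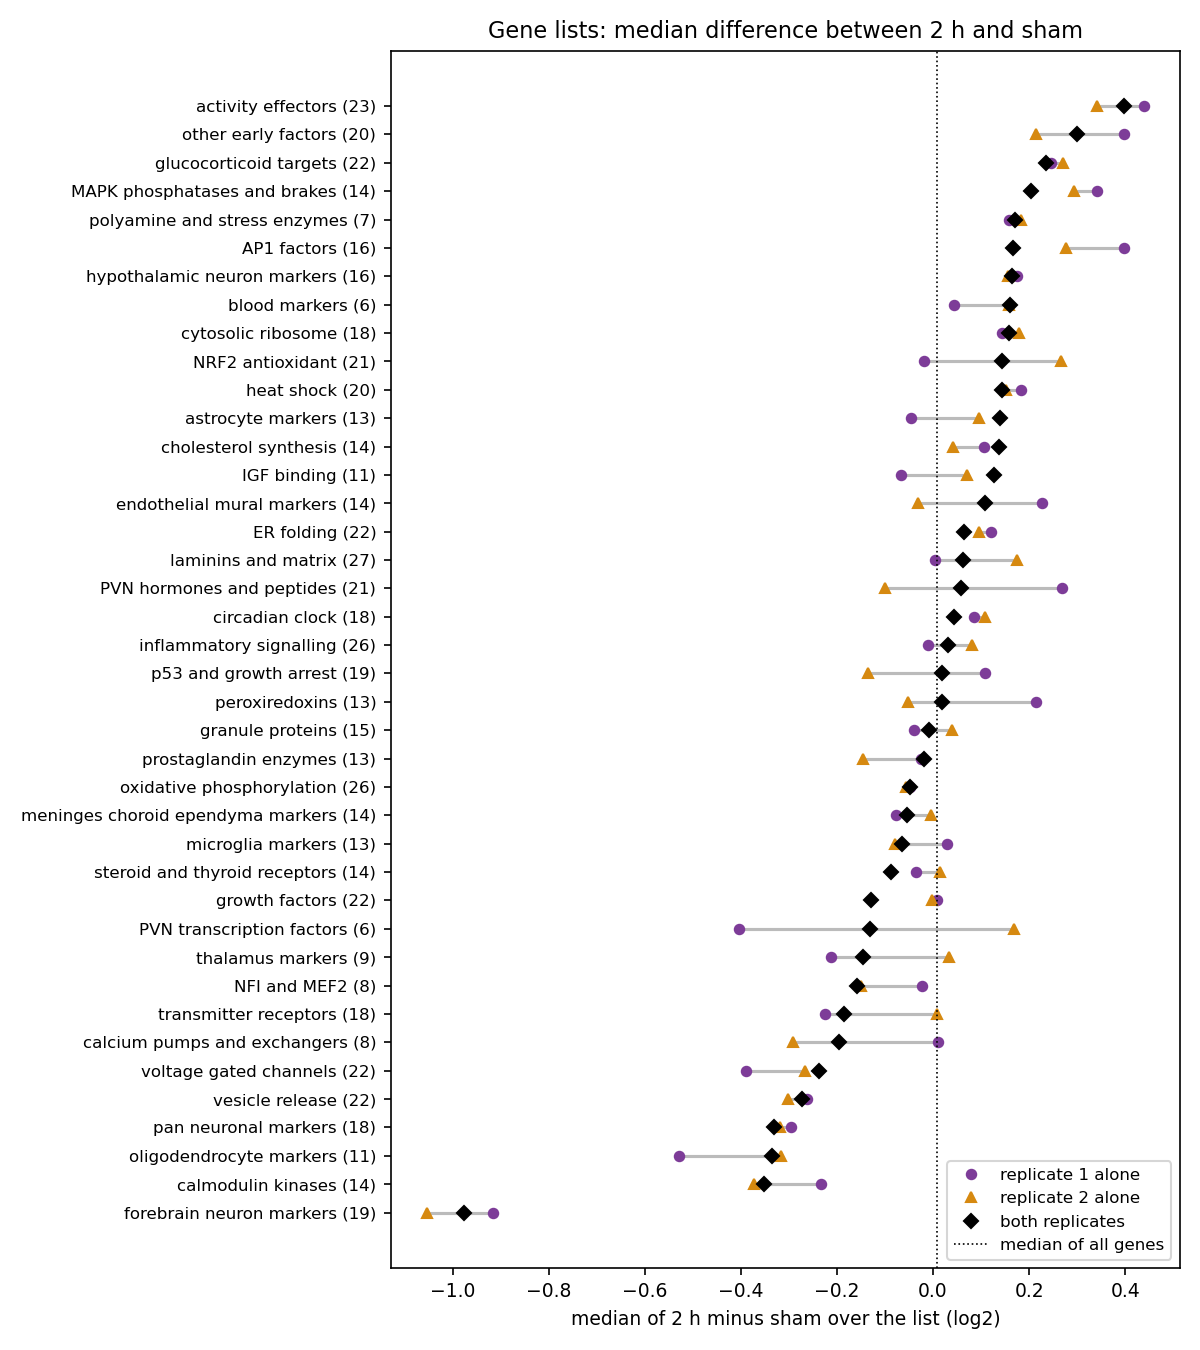
Median log2 difference (2 h minus sham, x axis) of gene lists of 6 or more genes, over all members on the array without a filter (number in brackets); black diamonds, both replicates; purple circles, replicate 1 alone; orange triangles, replicate 2 alone; dotted line, the median of all genes, 0.01. The forebrain neuron markers lie apart at the bottom with -0.98, and the activity effectors are at the top with 0.40.

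Of the hormones that define the PVN, Oxt and Avp differed little at 2 h, while Trh and Sst had larger differences that varied with single arrays. Oxt, the precursor of oxytocin, read 10.86 and 10.82 in sham and 11.13 and 10.87 at 2 h. The arrays did not overlap, but the 2 ECS arrays differed by more than the gap between the groups. The difference was 0.16 ± 0.19, that is 1.12-fold, and it came to 0.03 without ECS replicate 1. Avp, the vasopressin precursor, read 10.02 and 9.55 in sham and 10.14 and 9.95 at 2 h, with overlap. It differed by 0.26 ± 0.23, and by 0.03 without sham replicate 2. Trh, the releasing hormone of the thyroid axis, read 9.11 and 10.09 in sham and 10.08 and 10.52 at 2 h. Sham replicate 2 and ECS replicate 1 were level, so the groups overlapped, and the difference was 0.70 ± 0.32 (0.21 without sham replicate 1). Sst, somatostatin, read 8.85 and 8.87 in sham and 10.02 and 9.20 at 2 h, higher in both ECS arrays, by 0.75 ± 0.34 (0.33 without ECS replicate 1). Pdyn and Penk, the opioid precursors, overlapped, with differences of 0.25 and 0.06.

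The peptide genes Cck, Npy and Vip were lower, whereas Sst, as given above, was higher. Cck, cholecystokinin, read 6.72 and 7.01 in sham and 4.59 and 4.63 at 2 h. The ECS values were close together and far below the shams. It was 4.78-fold lower (-2.26 ± 0.56, limma adjusted p = 0.692). Npy, neuropeptide Y, read 7.18 and 6.16 in sham and 4.07 and 5.30 at 2 h, lower in both replicates but by unequal steps, and was 3.95-fold lower. Vip, vasoactive intestinal peptide, read 5.94 and 6.13 in sham and 4.67 and 4.14 at 2 h, and was 3.10-fold lower. Of the 21 hormone and peptide genes as a whole, 4 were higher and 5 lower without overlap, against 16.7% and 16.2% of all genes. Their median of 0.06 was -0.05 on the values as deposited. Of 15 genes of the secretory granule, which stores these peptides, 2 were higher and 3 lower, with a median of -0.01 that was 0.05 with array medians subtracted.

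The probe sets with the smallest p-values were mostly lower at 2 h, and every probe set called in an alternative fit of 2 h against sham was lower. Ptgds, prostaglandin D synthase, an abundant enzyme of the meninges and of oligodendrocytes, read 10.46 and 10.47 in sham and 8.38 and 8.29 at 2 h. The arrays of each group agreed closely, and the groups were apart by more than 2 log2 units. It was 4.37-fold lower (-2.13 ± 0.25), with limma adjusted p-values of 0.0525 in the main fit, 0.00994 with the replicate block and 0.00775 on the 4 arrays alone, and the second probe set had the same direction. Kalrn, kalirin, a protein that shapes dendritic spines, read 10.58 and 10.01 in sham and 7.43 and 7.02 at 2 h. All ECS values were far below all sham values. It was 8.40-fold lower (-3.07 ± 0.39), with limma adjusted p-values of 0.0561, 0.0229 with the block and 0.00775 on the 4 arrays. The other tested probe set of Kalrn did not follow, with a difference of 0.37 and overlap.

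Mef2c, a transcription factor that couples activity to synapse number, was lower on 5 of 5 tested probe sets, with log2 differences from -2.06 to -3.47. On the probe set with the smallest p, sham read 7.63 and 7.96 and ECS 4.99 and 5.09. The groups were far apart and tight within. That probe set was 6.78-fold lower (-2.76 ± 0.60, limma adjusted p = 0.633), and 4 of the 5 were called on the 4 arrays alone, with adjusted p-values of 0.00775 for 3 of them and 0.0261. Lamp5, a membrane protein of the LAMP family found in forebrain neurons, read 8.27 and 8.82 in sham and 5.51 and 4.86 at 2 h. Neither ECS array came near the shams. It was 10.2-fold lower (-3.36 ± 0.86), with limma adjusted p-values of 0.692 in the main fit and 0.00775 on the 4 arrays.

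Camk2a, the alpha subunit of the calcium/calmodulin-dependent kinase of excitatory synapses, read 8.88 and 9.11 in sham and 5.73 and 6.78 at 2 h. Both ECS arrays were lower, replicate 1 the more so. It was 6.68-fold lower (-2.74 ± 0.53, limma adjusted p = 0.513, 0.0434 with the block and 0.0385 on the 4 arrays). Igfbp4, a binding protein that holds back insulin-like growth factors, read 8.64 and 7.78 in sham and 5.48 and 4.53 at 2 h. It was lower in both replicates and on 5 of 5 tested probe sets. On the brightest it was 9.26-fold lower (-3.21 ± 0.50, limma adjusted p = 0.148 and 0.0303 on the 4 arrays). Nfix, a nuclear factor I protein of neural differentiation, read 7.96 and 7.76 in sham and 5.35 and 5.45 at 2 h, with 3 of 3 tested probe sets lower. The groups were tight and apart, 5.51-fold (-2.46 ± 0.36, limma adjusted p = 0.131 and 0.0385 on the 4 arrays).

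Rasgrp1, a calcium-sensitive activator of Ras, read 7.47 and 8.11 in sham and 5.41 and 4.77 at 2 h, and was 6.51-fold lower, called on the 4 arrays alone (limma adjusted p = 0.046). Enc1, an actin-binding protein of neurons, which was picked out as the remaining named call, read 10.83 and 11.06 in sham and 9.13 and 9.66 at 2 h, with the same limma adjusted p of 0.046 on the 4 arrays. Neither gene's groups overlapped. The 4 calls with the block were Ptgds, Kalrn, Camk2a and a probe set with no gene symbol (-1.50, limma adjusted p = 0.0229), and the block and the 4-array fit shared 3 calls.

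**Figure D3:**
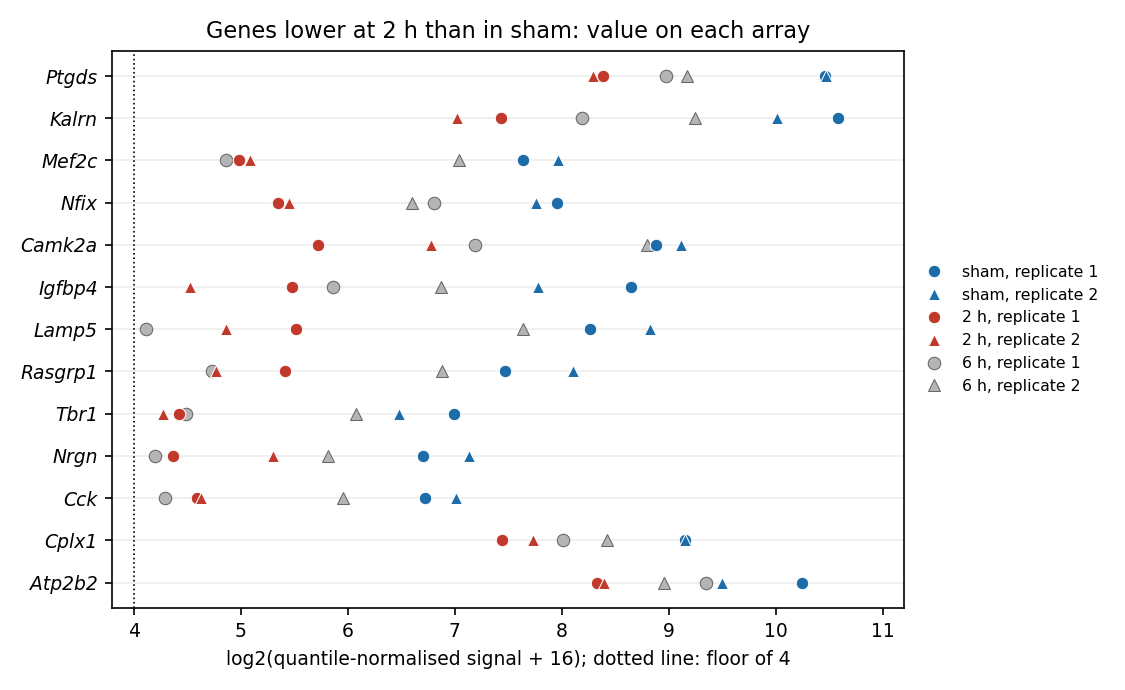
Log2 signal of 13 genes that were lower at 2 h than in sham, on each of the 6 arrays (x axis, log2 of the quantile-normalised signal plus 16; dotted line, the floor of 4; colours and shapes as for the higher genes). The red points of the 2 h arrays lie to the left of the blue sham points in every row, with a log2 difference of -3.07 for Kalrn and -1.51 for Atp2b2, and the grey 6 h points of replicate 2 lie nearer to sham than those of replicate 1 for Lamp5 and Mef2c.

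The lists of calmodulin kinases, voltage-gated channels and vesicle release held more lower than higher members. Of 14 calmodulin-dependent kinase and calcineurin genes, 1 was higher and 7 lower without overlap (median -0.35). They included Nrgn, neurogranin, which sequesters calmodulin in spines, at 4.24-fold lower, and Camkk2, a kinase upstream of other calmodulin kinases, at 2.89-fold lower. Of 22 voltage-gated channel genes, 1 was higher and 10 lower (median -0.24). Among these the sodium channels Scn2a and Scn1a were 1.91-fold and 1.70-fold lower, and the calcium channel beta subunits Cacnb1 and Cacnb2 were 2.26-fold and 2.08-fold lower, Cacnb1 on 1 of its 2 tested probe sets and by a log2 difference of -0.56 without ECS replicate 2. The beta subunits are the partners of Rrad and Gem, which were higher. Of 18 transmitter receptor genes, 3 were higher and 4 lower without overlap, near the 16.7% and 16.2% of all genes. The lowest p was that of Gabrd, the delta subunit of extrasynaptic GABA receptors, at 2.58-fold lower. The receptor median of -0.19 was above 0 without sham replicate 2 (0.04) or without ECS replicate 1 (0.06).

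Of 22 genes of synaptic vesicle release, 1 was higher and 10 lower without overlap (median -0.27), against 16.7% and 16.2% of all genes. The filter kept 21 of them. Cplx1, complexin, which clamps the fusion machinery, read 9.15 and 9.15 in sham and 7.44 and 7.73 at 2 h. The sham arrays were level and both ECS arrays well below. It was 2.96-fold lower (-1.57 ± 0.31, limma adjusted p = 0.58). Stx1a, the plasma membrane syntaxin, was 2.38-fold lower, and Syt1, the calcium sensor of release, 2.75-fold, though with a log2 difference of -0.77 without ECS replicate 1. Snap25, the third core SNARE with syntaxin and synaptobrevin, read 12.74 and 12.54 in sham and 12.30 and 12.05 at 2 h, and was 1.38-fold lower (-0.46 ± 0.12). Atp2b2, the plasma membrane pump that clears calcium, read 10.25 and 9.49 in sham and 8.33 and 8.39 at 2 h, lower in both ECS arrays and on 3 of 3 tested probe sets, by 2.85-fold (-1.51 ± 0.31). Gad1, the enzyme that makes GABA, was 2.41-fold lower without overlap (-1.27), but its log2 difference was -0.48 without ECS replicate 1.

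Marker lists of forebrain neurons, of neurons in general and of oligodendrocytes had lower sums at 2 h, and those of the neighbouring thalamus, of astrocytes and of microglia overlapped between the groups. Of 19 markers of forebrain neurons, chosen for cortex, hippocampus and striatum, 14 were lower and 2 higher without overlap, with a median of -0.98, and the list itself holds Camk2a, Kalrn, Mef2c and Nrgn. Their summed signal was 5684 and 5771.5 in sham and 2793.7 and 2577.3 at 2 h. Without those 4 genes, a choice made after the values were seen, the sums were 3091.7 and 3439.6 against 2538.3 and 2283.4. Tbr1, a T-box factor known from cortical projection neurons, read 7.00 and 6.47 in sham and 4.42 and 4.27 at 2 h, and was 5.23-fold lower. Neurod2 and Ppp1r1b of the same list were below the array median on all arrays. For comparison, 16.7% of all genes were higher and 16.2% lower without overlap. The pan-neuronal markers summed to 21822.8 and 21332.8 in sham and 17043 and 17896.3 at 2 h, with 2 of 18 higher and 9 lower without overlap (median -0.33).

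The hypothalamic neuron markers, by contrast, summed to 20658.6 and 22211.5 in sham and 23578.4 and 24143.1 at 2 h. Without overlap, 4 of 16 were higher and 1 lower, against 16.7% and 16.2% of all genes. Bright genes weigh most in such a sum, among them Ndn, Nnat and Peg3, with log2 differences of 0.06, 0.13 and 0.17. The 1 lower was the PVN factor Otp (-0.71), which did not pass the filter, and the PVN factor Sim1 overlapped. Oligodendrocyte markers summed to 4042.1 and 3685.1 against 3330.6 and 3280.3, with 0 of 11 higher and 6 lower without overlap (median -0.34). Markers of meninges, choroid plexus and ependyma summed to 1767.1 and 1647.8 against 611.4 and 557.6. Nearly all of that difference was Ptgds itself, since without it the sums were 373.6 and 243.8 against 293.1 and 259.8. Of the 14 genes of that list, 3 were higher and 4 lower without overlap (median -0.05, and 0.02 with array medians subtracted). The 6 that lay below the array median on all arrays were Ttr, Folr1, Kl, Dcn, Aldh1a2 and Foxj1. The astrocyte sums overlapped between the groups, at 7334.3 and 7839 against 7318.6 and 8506.1, and so did the microglial sums, at 1834.4 and 1543.1 against 1737.4 and 1422.6. The 9 thalamus markers summed to 687.4 and 630.4 in sham and 594.4 and 851.4 at 2 h, and 4 of them were below the array median on all arrays. The part of forebrain tissue, or of any other cell type, in the lower values of Kalrn, Mef2c, Camk2a, Lamp5, Cck and the synaptic genes was not tested.

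**Figure D4:**
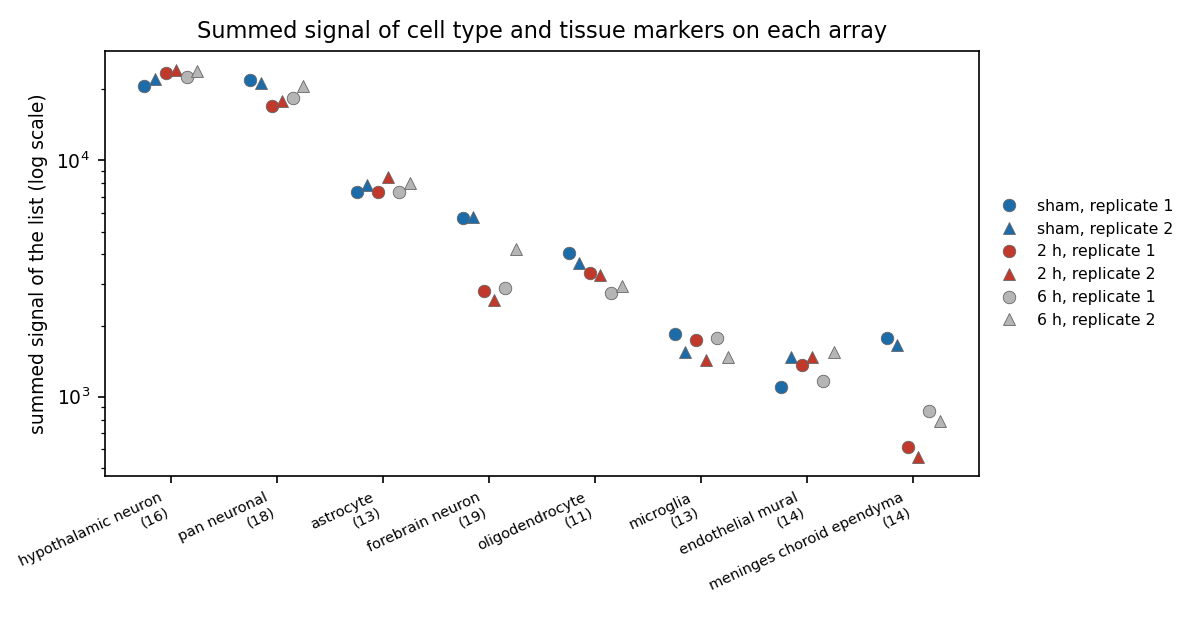
Summed quantile-normalised signal of the marker lists (y axis, log scale; number of genes in brackets) on each array; blue, sham; red, 2 h; grey, 6 h; circles, replicate 1; triangles, replicate 2. The forebrain neuron markers lie at 5684 and 5771.5 in sham and 2793.7 and 2577.3 at 2 h, while the hypothalamic markers differ little.

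Replicates agreed in part. Across all tested probe sets, the difference in replicate 1 and that in replicate 2, which share no array, had a Pearson correlation of 0.150, and of 0.111 in the dimmest and 0.212 in the brightest of 4 equal groups of probe sets. Probe sets share pools and arrays, and this value is a description. Of the 653 probe sets at least 2-fold higher in replicate 1, 55.4% were higher in replicate 2, where 50.2% of all probe sets were higher, with a median there of 0.09. Of the 697 at least 2-fold lower in replicate 1, 63.0% were lower in replicate 2, with a median of -0.17. At 4-fold the agreement was better: of 63 lower in replicate 1, 76.2% were lower in replicate 2 (median -0.61), and of 27 lower in replicate 2, 81.5% were lower in replicate 1, with a median of -2.06. For the higher ones it was 70.2% of 47 and 73.7% of 19, with medians of 0.33 and 0.23. Without 1 array, 5 of 80 named genes changed sign in at least 1 setting (Penk, Pdyn, Jund, Nr3c1 and Sim1), and 27 kept it with a difference that shrank by over 1.5 times. Besides those whose smaller value is given above, these 27 included Klf2, Ier3, Bdnf, Manf, Sat1, Sesn2, Scn1a and Ctnnb1, for which the factor lay between 1.52 (Klf2) and 1.87 (Scn1a).

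**Figure D5:**
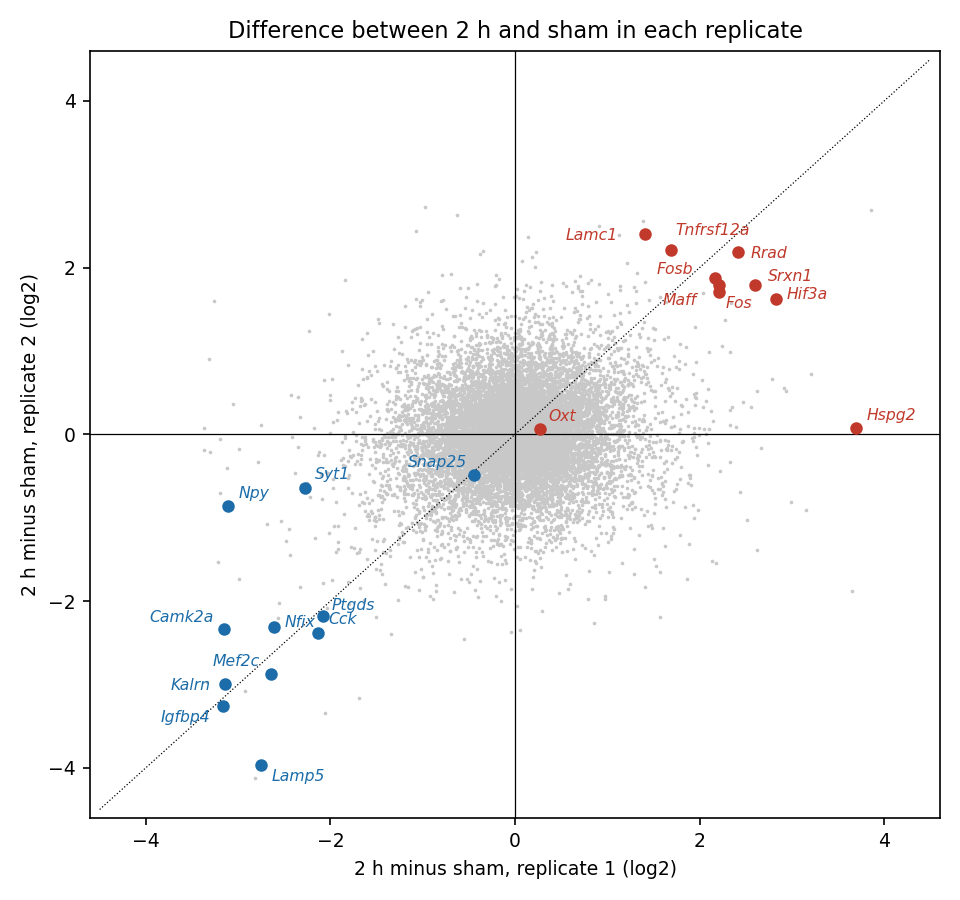
Log2 difference between 2 h and sham in replicate 1 (x axis) and in replicate 2 (y axis) for the 12662 tested probe sets (grey), with named genes higher (red) and lower (blue) at 2 h; the dotted line marks equal differences. Fos, Fosb, Maff, Rrad and Srxn1 lie together at the upper right and Kalrn, Igfbp4, Mef2c and Lamp5 at the lower left, whereas Hspg2 and Npy lie far from the diagonal.

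A second probe set of the same gene gave a further reading on the same arrays. Among the probe sets at least 2-fold apart without overlap, 258 had a gene with another tested probe set. For 189 of these the others' median had the same direction. Over all 258, the middle value of the others' medians, taken in that direction, was 0.32. The share over all genes with several tested probe sets was not computed. Cplx1, Stx1a, Tnfrsf12a, Gadd45b and Jun were among the genes with both tested probe sets alike in direction. Ctnnb1, the catenin of Wnt signalling and cell contacts, and Strbp, an RNA-binding protein, were 3.75-fold and 3.88-fold higher on 1 probe set, while neither had a second tested probe set in that direction among its other 2.

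At 6 h the test was made against the 2 h arrays. Sham values are set beside it as levels, and differences of the 2 times from sham share the same sham arrays. Genes picked as extreme on the 2 h and sham arrays tend to lie nearer to the middle on any other array. Fos read 5.32 and 5.83 at 6 h, Fosb 4.07 and 4.90, Maff 4.87 and 5.56, and Rrad 5.96 and 5.93, each below both 2 h arrays. Srxn1, on the same probe set as above, read 8.90 and 8.24 at 6 h, level with its 2 h values. Hif3a read 4.11 and 4.27. Of the genes lower at 2 h, Ptgds read 8.98 and 9.17 and Nfix 6.80 and 6.60 at 6 h, between the 2 h and the sham values in both replicates. Mef2c read 4.86 and 7.04, Lamp5 4.11 and 7.64 and Camk2a 7.19 and 8.79, with replicate 2 closer to sham than replicate 1. The forebrain marker sums followed the same order, with 2892 in replicate 1 and 4199.5 in replicate 2 at 6 h. The array of 6 h replicate 1 had a Gapdh 3' to 5' signal ratio of 14.1, where the other 5 lay between 6.43 and 10.5. Of the 4 compared arrays, sham replicate 1 had 10.5, sham replicate 2 had 6.43, and the 2 h arrays had 7.19 and 7.47. The Actb 3' to 5' ratio of 6 h replicate 1 did not stand apart, at 0.764, with 0.562 to 0.771 on the other 5 arrays. Its mean rank correlation to the rest was the lowest, at 0.846, while those of the other 5 ran from 0.869 up to 0.890. The part of these measures in the replicate difference was not tested.

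Tested directly, 6 h minus 2 h gave no limma call (0% of 12662 probe sets, lowest adjusted p = 0.688), with 438 (3.46%) at an unadjusted p under 0.05. Without 6 h replicate 2 the same test gave 3 calls. The fitted difference from 2 h to 6 h was -1.45 for Fos, -1.97 for Fosb, -2.05 for Maff and -1.60 for Rrad, against -0.02 for Srxn1 and -0.48 for Tnfrsf12a.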

How the data were processed

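The authors deposited 1 intensity per probe set and array, computed by MAS5 (per the submitters' processing notes), with no version or target given in the sources used here. Of 22690 probe sets, 64 controls were left out. The other 22626 were quantile-normalised over the 6 arrays, and log2 was taken after adding 16. Those at or above their array's median on at least 2 arrays, 12662 (56.0%), were tested with limma 3.58.1 in R 4.3.3, two-sided, with all 6 arrays sharing the variance estimate (residual degrees of freedom 3, prior 7.64) and Benjamini-Hochberg adjustment at 0.05 over all tested probe sets. The array annotation gave 1 symbol for 20380 probe sets, several for 691 and none for 1555, and a gene is represented by its tested probe set of highest mean unless said otherwise. The number of arrays limits the precision.

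The study was run on 2 sets of animals, and replicate 1 and replicate 2 were taken as these runs. Same-numbered arrays deviated together from their group means, with correlations across probe sets of 0.228 (sham and 2 h), 0.185 (sham and 6 h) and 0.151 (2 h and 6 h). A replicate block was therefore also fitted, and its values stand beside the results whose call it changes.

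Named genes are the 20 with the smallest p, the 10 highest and 10 lowest without overlap, up to 4 per list by smallest p from 42 gene lists, and a fixed set of hormone and activity genes. Genes named outside this rule (Hmox1, Nqo1, Fkbp5, Txnip, Pdk4, Enc1, Otp and marker genes named for their low level) were picked after their values were seen. The members and lists were chosen with earlier results of these data known. List counts cover all members on the array, since a filter can let a gene in through its high group, and 1 list is not reported here. The procedure was tested on simulated data, where limma called 0.156% of 2-fold, 22.1% of 4-fold and 51.7% of 8-fold differences. The simulated noise was normal and independent between arrays, with the spreads shuffled over probe sets. It therefore lacked the dependence of spread on signal that the main fit models, and the likeness of same-numbered arrays. In that setting most 4-fold differences were not called, and the rates for the real arrays were not measured. Alternatives covered the offset, the scaling, the filter, the variance trend, the block, the 4 arrays alone and leaving out each array.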

Additional observations from a re-analysis of the deposited data

Results flagged for a closer look

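Some genes named above, or in the lists, lay on opposite sides of sham at the 2 times, with both 2 h arrays on one side of both sham arrays and both 6 h arrays on the other. The same was found for 235 tested probe sets, 1.86% of all. Both differences use the same sham arrays. Egr1, the activity-regulated zinc-finger factor, was above sham at 2 h and below it at 6 h, where it read 7.51 and 7.79. Its limma difference of 6 h minus 2 h was -1.53, with an adjusted p of 0.999. The glutamate transporter of astrocytes Slc1a3 (-0.76) and the co-chaperone Dnajb5 (-1.08) were also above sham at 2 h and below it at 6 h, and so was the ribosomal protein gene Rpl41 (-0.45). At 2 h, 2 of 3 tested probe sets of Slc1a3 and 3 of 4 of Rpl41 were higher, and Slc1a2, the other main glutamate transporter of astrocytes, had a difference of -0.53 with overlap. C1qc, a chain of the complement protein C1q, which microglia make, went the other way, with sham at 6.19 and 6.22, the 2 h arrays at 4.97 and 5.67 and the 6 h arrays at 7.34 and 7.32. Its difference of 6 h minus 2 h was 2.01. Without ECS replicate 1 at 2 h, the difference of 2 h from sham was -0.53 for C1qc, where it was -0.88. For Rpl41 it was then 0.17, where it was 0.31. The other C1q chains did not follow: C1qb read 8.76 and 8.46 in sham, 8.79 and 8.86 at 2 h and 8.44 and 8.97 at 6 h, and C1qa overlapped at both times, with 5.24 and 5.46 at 6 h. The summed microglia markers overlapped between the groups too. None of these differences passed limma's adjustment.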

How the results depend on the processing

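The main limma fit of 2 h against sham called 0 probe sets. It called 1 on the values as deposited, 1 with array medians subtracted, 1 with a filter on the mean over arrays, 4 with the replicate block (pairing by run) and 12 on the 4 arrays alone, and between 0 and 10 when 1 array was left out. The test of 6 h against 2 h called 0 in the main fit and between 0 and 3 without 1 array. The count of probe sets at least 2-fold higher was 200, and it was 395 with an offset of 1, 30 with an offset of 64, 103 as deposited, 67 with a filter at the 75th percentile and 188 to 493 without 1 array. The count lower was 241, and 479, 61, 311, 84 and 225 to 536 in the same order. The block changed no call beyond the 4. Fitted without the variance trend, 2 h against sham gave 0 calls, with a lowest limma adjusted p of 0.634 against 0.0525 in the main fit. Differences near 0 changed sign for Penk (-0.047 as deposited, -0.18 to 0.29 without 1 array) and, without 1 array, for Pdyn (-0.37 to 0.86), Jund (-0.59 to 0.30), Nr3c1 (-1.13 to 0.19) and Sim1 (-0.048 to 0.62). The lists' signs under the scalings and without 1 array, over all members, were checked after the values were seen. AP-1, early factors, effectors, glucocorticoid targets, channels, vesicle release, calmodulin kinases, pan-neuronal, oligodendrocyte, forebrain and hypothalamic markers kept theirs under both other scalings and without each of the 4 sham and 2 h arrays. The effectors' median turned to -0.48 with a filter at the 75th percentile. Signal near the floor limits dim genes, Fosb, Hif3a and Tnfrsf12a among them, whose differences were 0.96, 1.00 and 0.94 at an offset of 64, and 3.44, 4.97 and 3.41 at 1.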

Other observations

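Hlf, a PAR-type leucine zipper factor that binds the D-box of clock-controlled genes, read 6.62 and 7.43 in sham and 4.53 and 5.65 at 2 h, and was 3.82-fold lower on a probe set whose partner had the same direction. Tef, of the same family, was 1.46-fold lower on 1 of 2 tested probe sets. Per3 was 1.81-fold higher, by 0.19 (log2) in replicate 1 and 1.52 in replicate 2, so that the fold rested on replicate 2, and Clock was 1.38-fold higher, each without overlap. Of 18 clock genes, 4 were higher and 3 lower without overlap, against 16.7% and 16.2% of all genes. Their median of 0.04 was -0.06 on the values as deposited. Both groups were collected at 2 h after handling, and the hour of day is not given in the sources used here.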
